A study of Mus musculus with 8 samples.

Results

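Transcripts of 8 proteins of the wound matrix were followed in single and double colored cardiomyocytes of injected mouse hearts: tenascin-C (Tnc), periostin (Postn), thrombospondins 1, 2 and 4 (Thbs1, Thbs2, Thbs4), Sparc, the TGF-beta-induced protein (Tgfbi) and fibronectin (Fn1). They were taken from the deposited count table by Ensembl identifier, 8 of 37991 genes listed, and all 8 were among the 12466 genes with enough reads to be tested. The genes were chosen for their difference between the 2 groups, so that difference is described for them without a test. The single colored group held 4 libraries of isolated adult cardiomyocytes, the contractile cells of the heart muscle, that the labels give as having performed the cell cycle. The double colored group held 4 libraries of the same kind of cell that the labels give as treated in the same way without having performed it. All 8 libraries came from hearts of the background alpha-MHC MERCREMER MADM. It carries a hormone-dependent Cre recombinase under the promoter of alpha myosin heavy chain, which is active in cardiomyocytes, and MADM is mosaic analysis with double markers, which can leave daughter cells of a division with a single color. Hearts in both groups had received adenovirus encoding 4 cell cycle genes (4F in the labels) 2 weeks before the cells were isolated. The labels give no age and do not say whether replicates came from separate animals, so the spread between libraries may in part be technical.

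Matricellular proteins are secreted into the extracellular matrix and act there mainly as signals and as regulators of assembly, more than as load-bearing fibres. In an injured heart they are made largely by activated fibroblasts, with macrophages and platelets as further sources of some of them, and their levels are low in the healthy adult heart. They bind integrins, syndecans and collagens, and several of them are induced by TGF-beta or help to release it from its latent form. Fibronectin is usually counted as a structural adhesive glycoprotein of the provisional matrix, to which the others attach.

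Libraries held 23820700 to 30082278 counts. Mitochondrially encoded genes took 77.5 to 85.9% of them in single colored and 84.2 to 88.3% in double colored libraries. Nuclear genes had 3750616 to 6112595 counts in single colored and 3503353 to 3850391 counts in double colored libraries. All 10 cardiomyocyte markers examined were detected, with a summed level of 13303 to 23910 CPM (counts normalized to library depth, here after TMM scaling) in single colored and 20923 to 27672 CPM in double colored libraries. Over all genes, 309 differed between the groups by edgeR's quasi-likelihood test at an adjusted p under 0.05, 289 of them higher (2.32%) and 20 lower (0.16%) in single colored cells. DESeq2 placed 455 genes higher and 101 lower, and a fit with the replicate number as a block placed 619 higher and 320 lower. The median log2 fold change of all genes was 0.48 when scaled by library totals alone, against -0.01 with TMM factors. Replicate 1 had the highest level of 7 of the 8 matricellular genes among single colored libraries and of 4 of the 8 among double colored ones, so their fold changes are also given without both libraries numbered 1.

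Promoter sequences from RefSeq (GRCm38.p6, 250 bases before the transcription start to 50 bases after it) were found for 6 of the 8 genes, all but Thbs1 and Fn1. The promoters below are those of the 2 genes with an entry whose difference between the groups was widest (Tnc and Tgfbi), the gene with the narrowest (Sparc), and Postn, whose TATA box letters lie closest to the start. Capitals mark the TATA box letters TATAAA, the AP-1 motif TGANTCA and the TEAD motif CATTCC, searched on both strands. Tnc lies on the minus strand of chr4:64046966-64047265, Tgfbi on the plus strand of chr13:56609336-56609635, Sparc on the minus strand of chr11:55420031-55420330, and Postn on the plus strand of chr3:54360857-54361156.
Tnc: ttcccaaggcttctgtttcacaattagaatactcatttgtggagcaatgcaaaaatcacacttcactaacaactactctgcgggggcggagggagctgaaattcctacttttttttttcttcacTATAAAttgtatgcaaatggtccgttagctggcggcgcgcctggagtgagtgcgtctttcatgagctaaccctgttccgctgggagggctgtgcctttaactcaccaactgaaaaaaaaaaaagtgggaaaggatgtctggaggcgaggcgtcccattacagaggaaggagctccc
Tgfbi: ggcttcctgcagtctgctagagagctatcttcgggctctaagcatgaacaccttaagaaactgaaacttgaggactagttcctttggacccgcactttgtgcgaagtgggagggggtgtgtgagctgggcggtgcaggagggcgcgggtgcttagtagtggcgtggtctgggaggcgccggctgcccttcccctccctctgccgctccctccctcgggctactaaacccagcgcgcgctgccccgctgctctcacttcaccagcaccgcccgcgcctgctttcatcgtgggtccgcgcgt
Sparc: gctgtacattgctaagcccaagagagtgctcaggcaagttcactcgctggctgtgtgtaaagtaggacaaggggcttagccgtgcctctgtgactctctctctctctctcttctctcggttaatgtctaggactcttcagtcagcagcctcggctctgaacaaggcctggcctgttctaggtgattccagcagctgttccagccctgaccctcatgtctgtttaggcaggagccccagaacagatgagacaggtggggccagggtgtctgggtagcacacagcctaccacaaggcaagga
Postn: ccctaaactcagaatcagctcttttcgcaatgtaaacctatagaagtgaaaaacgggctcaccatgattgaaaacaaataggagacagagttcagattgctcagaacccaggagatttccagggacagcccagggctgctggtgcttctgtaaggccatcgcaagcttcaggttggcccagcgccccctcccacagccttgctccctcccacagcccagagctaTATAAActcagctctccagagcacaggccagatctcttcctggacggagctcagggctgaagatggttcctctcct
The letters TATAAA began 126 bases before the start in Tnc and 26 bases before it in Postn, and Thbs2 also held them, on the other strand. That made 3 of 6 promoters, while 13.6% of all 32851 promoters of this length held the letters. TGANTCA was in 0 of the 6 and in 7.81% of all promoters, and CATTCC was in Thbs4 alone, as 2 overlapping copies, and in 14.7% of all promoters. CAGAC, which SMAD proteins bind, was in 5 of the 6 and in 49.6% of all promoters, and CANNTG, the E-box, was in 4 of the 6 and in 72.3% of all. The share of G and C ran widely, with 47.3% in Tnc, 63.3% in Tgfbi, 55.3% in Sparc, 53.0% in Postn, 48.3% in Thbs2 and 72.0% in Thbs4, beside a median of 52.7% over all promoters. A match shows the letters only and none of these motifs was common to all 6 promoters.

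Tnc stood out by how evenly it differed. Tenascin-C is a de-adhesive glycoprotein that is nearly absent from the healthy adult heart and is deposited for a short time at the edge of an injury. It measured 34.7, 18.3, 16.7 and 15.6 CPM in single colored replicates 1 to 4, against 8.46, 4.54, 4.54 and 4.01 CPM in double colored replicates 1 to 4. The lowest single colored library lay above the highest double colored one, and replicate 1 was the highest in each group. Within libraries of the same number, the single colored level was 4.11, 4.03, 3.69 and 3.88 times the double colored level. The fitted log2 fold change was 1.99 ± 0.29 (SE), or 1.95 without both libraries numbered 1. These values rest on 392 to 1326 reads per single colored library and 96 to 202 reads per double colored library. Tnc lies on the minus strand of chromosome 4 from 63620819 to 63681760 in mm9, with 26 exons, and 2.34% of its exon bases overlap a gene on the other strand.

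Fn1, which builds the fibrillar scaffold of the provisional matrix, showed the next widest difference. Its level was 423, 282, 189.6 and 173 CPM in single colored replicates 1 to 4, against 125, 90.9, 56.6 and 39.4 CPM in double colored replicates 1 to 4. The groups did not overlap, although levels within each group spread more than 2-fold. The ratio within numbers 1 to 4 was 3.39, 3.10, 3.35 and 4.39, and the log2 fold change was 1.78 ± 0.38 (SE). Fn1 lies on the minus strand of chromosome 1 from 71632094 to 71699774 in mm9, and 3.50% of its exon bases overlap a gene on the other strand.

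Tgfbi and Postn belong to the fasciclin-domain family. Tgfbi is secreted after TGF-beta stimulation, binds collagens and integrins, and is also made by macrophages. It measured 17.7, 14.4, 10.3 and 14.5 CPM in single colored replicates 1 to 4, against 4.35, 5.23, 5.49 and 2.38 CPM in double colored replicates 1 to 4. The groups did not overlap, and unlike Tnc the ratio was uneven, 4.07, 2.75, 1.88 and 6.10 within numbers 1 to 4. Its log2 fold change was 1.71 ± 0.24 (SE). These values rest on 366 to 676 reads per single colored library and 57 to 127 reads per double colored library, with the 57 reads in replicate 4. Postn, which encodes periostin and is best known as a marker of activated cardiac fibroblasts, measured 390.0, 178, 131 and 85.0 CPM in single colored replicates 1 to 4, against 171, 113, 39.1 and 44.9 CPM in double colored replicates 1 to 4. Here the groups overlapped, since double colored replicate 1 lay above single colored replicates 3 and 4, and double colored replicate 2 above single colored replicate 4. Postn was nevertheless higher in the single colored library of every number, by 2.28, 1.58, 3.36 and 1.89 times, and its log2 fold change was 1.09 ± 0.65 (SE). That value was 0.51 without single colored replicate 1 and 1.58 without double colored replicate 1. Tgfbi lies on the plus strand of chromosome 13 from 56710920 to 56740923 and Postn on the plus strand of chromosome 3 from 54165031 to 54194961 in mm9.

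Among the thrombospondins, Thbs1 differed most clearly. Thrombospondin-1 restrains blood vessel growth and can activate latent TGF-beta. Its level was 61.4, 63.6, 44.1 and 37.7 CPM in single colored replicates 1 to 4, against 23.8, 30.5, 21.6 and 22.6 CPM in double colored replicates 1 to 4. The groups did not overlap, the ratios within numbers were 2.58, 2.08, 2.04 and 1.67, and the log2 fold change was 1.07 ± 0.18 (SE). Thbs1 was the only 1 of the 8 genes whose highest single colored library was not replicate 1.

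Thbs2, its closest relative and likewise an inhibitor of vessel growth, measured 22.7, 13.8, 11.8 and 8.10 CPM in single colored replicates 1 to 4, against 7.29, 9.998, 6.35 and 5.10 CPM in double colored replicates 1 to 4. Double colored replicate 2 lay above single colored replicate 4, while every numbered pair had the higher value in the single colored library. Its log2 fold change was 0.98 ± 0.28 (SE), and 0.66 without both libraries numbered 1. Thbs4, a thrombospondin of muscle and tendon matrix, measured 22.3, 10.6, 8.93 and 6.75 CPM in single colored replicates 1 to 4, against 11.2, 12.0, 1.94 and 2.01 CPM in double colored replicates 1 to 4. It was the only 1 of the 8 with a numbered pair in the other direction, with ratios of 1.99, 0.885, 4.59 and 3.36. The double colored libraries split widely here, with 268 and 263 reads in replicates 1 and 2 and 45 and 48 reads in replicates 3 and 4. The log2 fold change of Thbs4 was 0.85 ± 0.73 (SE), and ran from 0.36 without single colored replicate 1 to 1.26 without double colored replicate 2. In mm9, Thbs1 lies on the plus strand of chromosome 2 from 117937612 to 117952869, Thbs2 on the minus strand of chromosome 17 from 14802507 to 14831269, and Thbs4 on the minus strand of chromosome 13 from 93521545 to 93564773.

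Sparc, a collagen-binding glycoprotein that steers collagen fibril formation and is also made by endothelial cells, had the narrowest difference. Its level was 529.7, 386, 240.2 and 249 CPM in single colored replicates 1 to 4, against 329, 282, 172 and 229 CPM in double colored replicates 1 to 4. Double colored replicates 1 and 2 lay above single colored replicates 3 and 4, and the ratio within numbers was 1.61, 1.37, 1.40 and 1.09. The log2 fold change was 0.47 ± 0.26 (SE), and 0.20 without single colored replicate 1. Sparc lies on the minus strand of chromosome 11 from 55208002 to 55233582 in mm9.

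**Figure D1:**
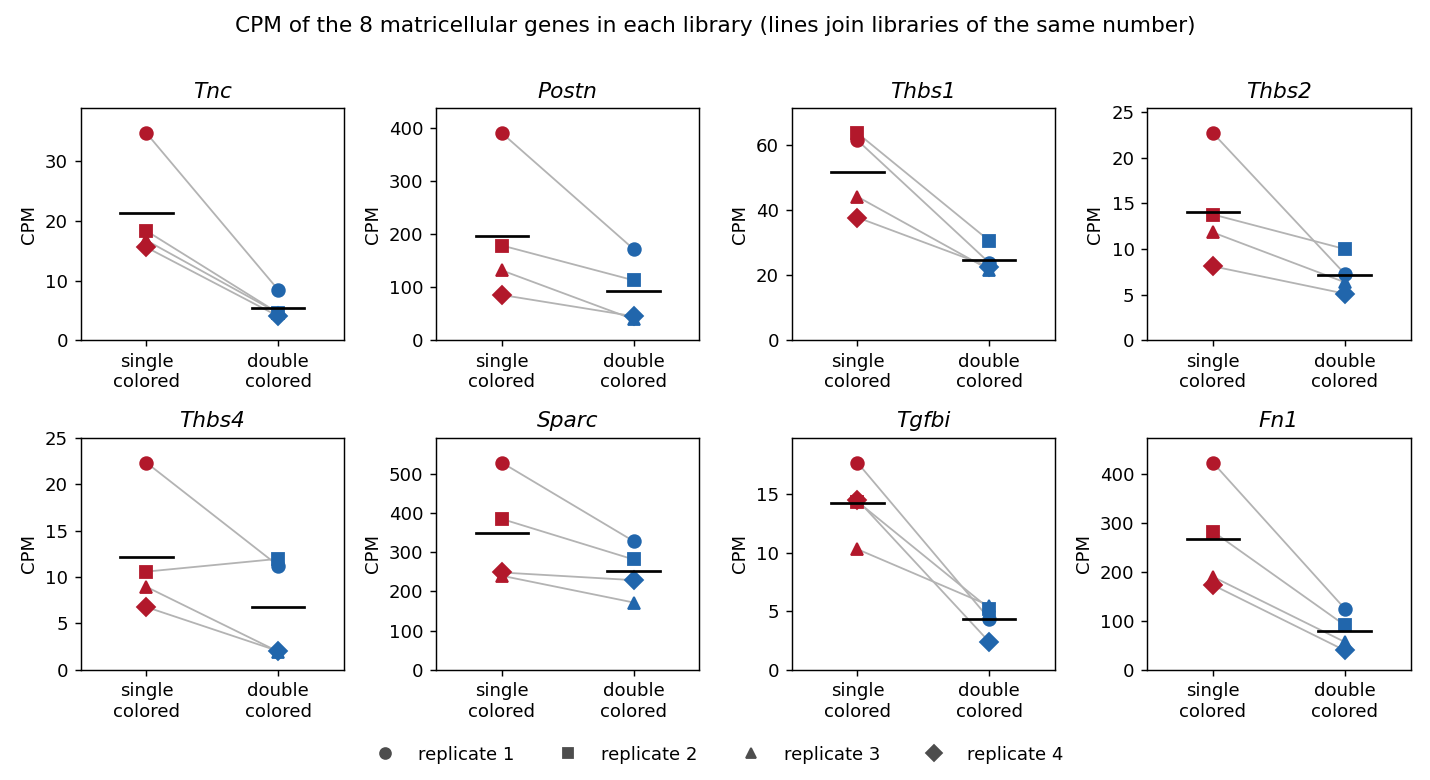
CPM (vertical axis, linear, from 0) of each of the 8 genes in the single colored (left, red) and double colored (right, blue) libraries; markers show the replicate number, grey lines join libraries of the same number and black bars are group means (n = 4 each). Tnc, Thbs1, Tgfbi and Fn1 show no overlap between groups, and only the Thbs4 line of number 2 runs up toward the double colored side.

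Across the 8 genes, 4 passed the edgeR threshold (Tnc, Fn1, Tgfbi and Thbs1), all with higher levels in single colored cells, where 2.32% of all tested genes were called higher. The same 4 genes had every single colored library above every double colored one, which held for 5.37% of all tested genes. In all 4 numbered pairs, 7 of the 8 had the higher value in the single colored library, as did 14% of all tested genes. The median log2 fold change of the 8 was 1.08 and that of all tested genes -0.01 (6153 of 12466 positive). Since the genes were chosen on this contrast, nothing is read from these counts. With the replicate number as a block 7 of the 8 passed, all but Sparc, where 4.97% of all tested genes were called higher. Tnc, Tgfbi and Thbs1 passed under every alternative run. All these runs, the block included, reuse the counts on which the genes were chosen and are no separate test. Fn1 did not pass without single colored replicate 1 (log2 fold change 1.46), single colored replicate 2 (1.75), double colored replicate 2 (1.85) or double colored replicate 3 (1.65), nor with a filter at 5 CPM (1.82) or without both libraries numbered 1 (1.79). Without those 2 libraries, the other log2 fold changes were 1.58 for Tgfbi, 1.01 for Postn, 0.96 for Thbs1, 0.73 for Thbs4 and 0.36 for Sparc. All 8 log2 fold changes stayed above 0 under each scaling, filter and left-out library. The authors' deposited table gives double over single colored, hence the opposite sign, and its log2 values for the 8 ran from -1.97 for Tnc to -0.46 for Sparc.

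Levels were compared between the genes per length of exon. On that scale (CPM per kilobase of exon), Sparc was by far the most abundant, with 104 ± 40.5 in single colored and 75.1 ± 20.1 in double colored cells (SD, n = 4 each). Fn1 followed with 32.0 ± 13.7 in single colored and 9.34 ± 4.54 in double colored cells, and Postn with 25.0 ± 17.2 in single colored and 11.7 ± 7.98 in double colored cells. These 3 collagen- and cell-binding proteins made up most of the total. Thbs1 had 8.51 ± 2.11 in single colored and 4.06 ± 0.66 in double colored cells. The lower end held Tgfbi, Thbs4, Thbs2 and Tnc, with means of 2.38 to 4.80 in single colored and 0.72 to 2.06 in double colored cells. Of the 7 pairs of neighbors in this order, 3 kept their order in every library: Sparc lay above Fn1, Postn above Thbs1 and Thbs1 above Tgfbi in all 4 libraries of each group. Fn1 lay above Postn in 4 of 4 single colored libraries and in 1 of 4 double colored ones. Tnc lay above Thbs2 in 4 of 4 single colored libraries and below it in 4 of 4 double colored ones. Tgfbi and Thbs4 were not separated, with Tgfbi higher in 3 of 4 single colored and 2 of 4 double colored libraries, and Thbs4 lay above Thbs2 in 4 of 4 single colored and 2 of 4 double colored ones.

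The make-up of the sum of the 8 genes per length therefore differed between the groups. Sparc held 57.4 ± 2.86% of that sum in single colored and 72.1 ± 5.76% in double colored libraries (SD, n = 4 each), with ranges of 54.4 to 60.5% and 67.1 to 80.0% that did not overlap. Fn1 held 17.4 ± 0.31% in single colored and 8.60 ± 2.10% in double colored libraries, with the 4 single colored shares all between 17.0 and 17.7%. Tnc held 1.57 ± 0.22% in single colored and 0.69 ± 0.16% in double colored libraries. Postn held 12.7 ± 3.46% in single colored and 10.2 ± 3.98% in double colored libraries, a difference within the spread of either group. The Fn1 share was thus nearly constant among single colored libraries whose Fn1 level ran from 173 to 423 CPM. The shares follow from the levels that chose the genes and carry no test.

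**Figure D2:**
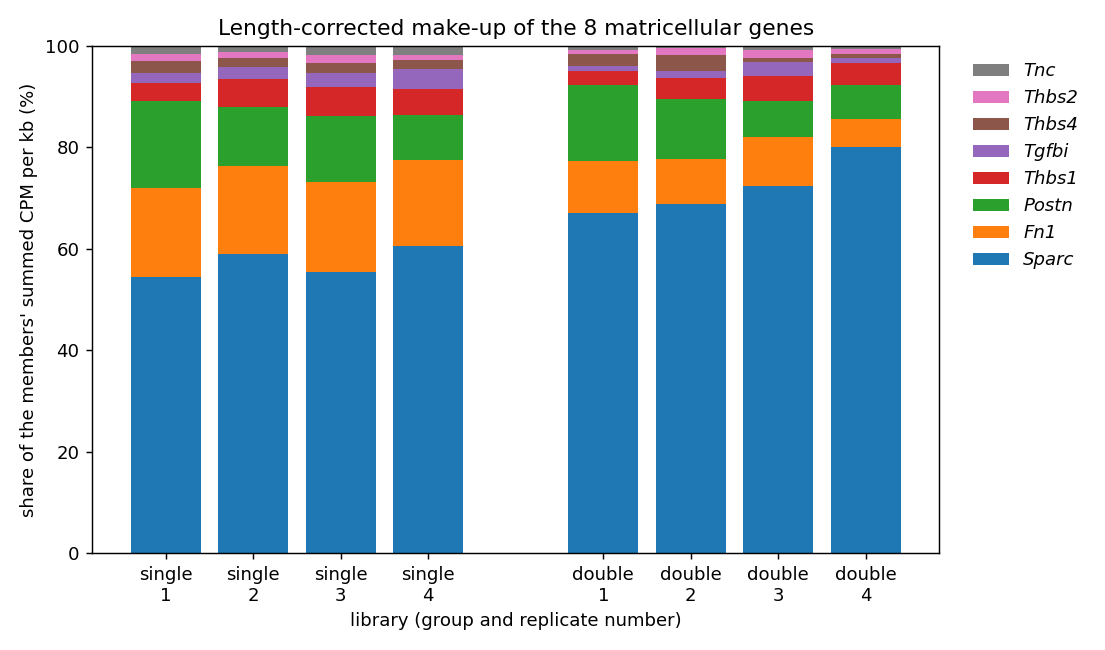
Share (vertical axis, percent, from 0 to 100) of each of the 8 genes in their summed CPM per kilobase of exon, in the 4 single colored (left) and 4 double colored (right) libraries. The Sparc share lies between 54.4 and 60.5% in single colored and between 67.1 and 80.0% in double colored libraries.

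Within the groups the levels of the 8 genes varied together from library to library, Tgfbi least closely. Deviations of log2(CPM + 1) from the group means correlated positively for all 28 pairs of the genes over the 8 libraries (median Pearson r 0.77, range 0.34 to 0.95). Without both libraries numbered 1 the median was 0.76 and the range 0.08 to 0.94. Over the 8 libraries, r of Tgfbi with the other genes ran from 0.34 with Sparc to 0.63 with Fn1. How often pairs of other genes correlated positively was not examined. The genes outside the 8 whose deviations were most like their mean were Mfap4 (0.99), Col3a1 (0.99), Sfrp1 (0.99), Col5a2 (0.99), Col1a2 (0.98), Col6a1 (0.98), Enpp1 (0.98), Tgfbr1 (0.98), Sulf1 (0.98) and Col14a1 (0.98), out of 4672 genes with a mean of at least 5 CPM. Of these, 5 encode collagen chains. Closest to single genes were Eef1a1 and Usp48 for Tnc, Tgfb3 and Lox for Fn1, Slc39a13 and Vps39 for Tgfbi, and Emp1 and Col14a1 for Postn. Far1 and Abca8a were closest to Thbs1, Csf1r and Mdfic to Thbs2, Sec61a1 and Enpp1 to Thbs4, and Sept11 and Igfbp7 to Sparc. The best r of each of the 8 lay between 0.95 and 0.99. The 8 libraries share replicate numbers and differ in depth and in marker levels. With so many genes ranked, these values describe the libraries and are no test.

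Fibroblast markers differed unevenly beside the 8 genes. Summed over 12 markers, their level was 589 to 1549 CPM in single colored and 318 to 654 CPM in double colored libraries, and replicate 1 was highest in both groups. The 3 collagen genes among them had the widest differences. Col1a1, the main chain of type I collagen, passed the test at 288 ± 138 CPM in single colored and 84.9 ± 39.4 CPM in double colored libraries (SD, n = 4 each, log2 fold change 1.76, edgeR adjusted p = 0.046), but not without single colored replicate 1, 2 or 3 or double colored replicate 2 or 3 (adjusted p up to 0.285) nor without both libraries numbered 1 (0.167), with a filter at 5 CPM (0.065) or with mitochondrially encoded genes left out (0.0504). For Col1a2 the log2 fold change was 1.44 (adjusted p = 0.187) and for Col3a1 it was 1.01 (adjusted p = 0.296), and both passed with the replicate number as a block (adjusted p = 1.16e-05 and 0.00026). The other fibroblast markers had smaller values. Pdgfra, a growth factor receptor that marks cardiac fibroblasts, measured 11.7 ± 3.16 CPM in single colored and 11.1 ± 3.64 CPM in double colored cells (log2 fold change 0.09 ± 0.24 SE). Dcn, the collagen-binding proteoglycan decorin, measured 96.7 ± 40.5 CPM in single colored and 104 ± 31.2 CPM in double colored cells (log2 fold change -0.10 ± 0.28 SE, and 0.43 when scaled by library totals alone). Tcf21, a fibroblast transcription factor, had a log2 fold change of -0.79 ± 0.48 (SE). The remaining 6 (Lum, Mfap5, Fbln1, Dpt, Pi16 and Dpep1) ran from -0.54 to 0.29 and did not pass, with Dpt alone passing as lower with the replicate number as a block (adjusted p = 0.037) and without single colored replicate 1 (log2 fold change -0.65, adjusted p = 0.0325). Of the 12 markers 1 passed, where 2.48% of all tested genes were called, the median log2 fold change was 0.14, and 7 were positive. Without single colored replicate 1 the median was -0.14 with 3 of 12 positive, and with library totals alone it was 0.67 with 11 of 12 positive, so the direction of this list rested on 1 library and on the scaling. Deviations from the group means also correlated with the mean of the 8 genes for most markers over the 8 libraries, with r from 0.69 for Tcf21 to 0.99 for Col3a1 in 11 of them and -0.04 for Dpep1.

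**Figure D3:**
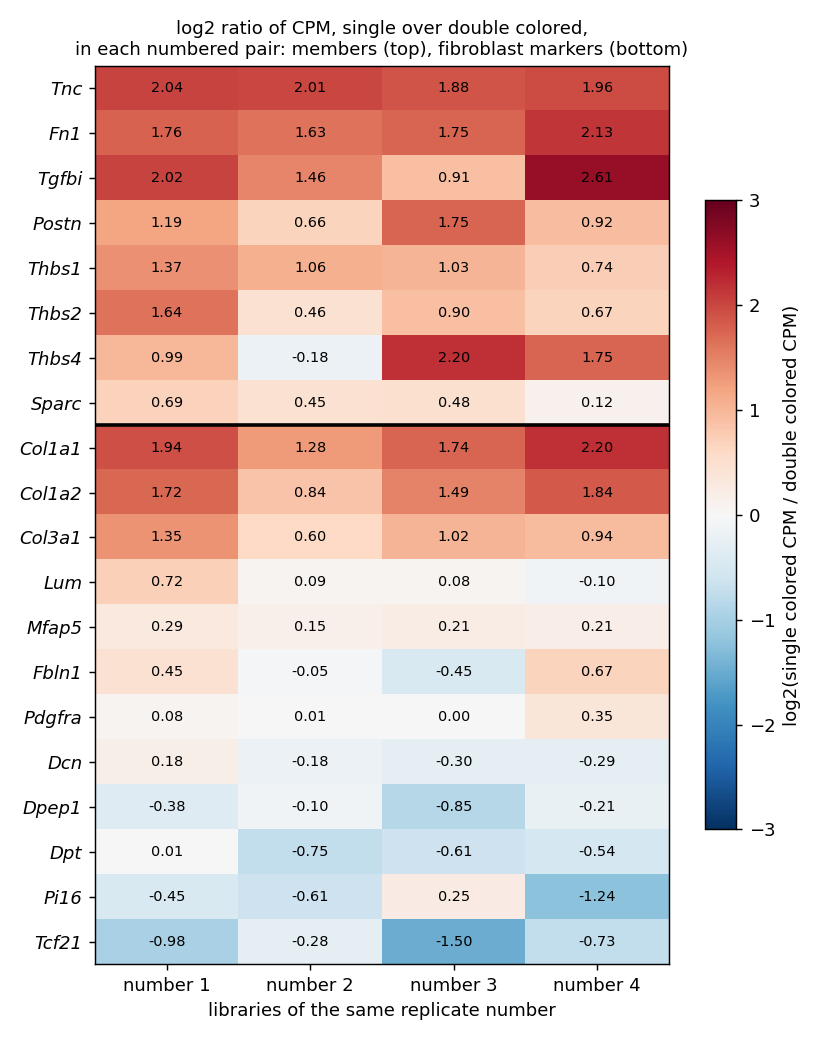
Log2 ratio of single over double colored CPM (color and printed value) in each of the 4 pairs of libraries with the same number (columns), for the 8 matricellular genes (above the line) and 12 fibroblast markers (below it). Tnc is near 2 in every column, the type I and III collagen genes are positive throughout, and Pdgfra and Dcn lie near 0.

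In bulk RNA of this kind, fewer cells of a type and less RNA per cell cannot be told apart. Markers of other cell types also had unequal levels. Summed over 10 macrophage markers the level was 203 to 358 CPM in single colored and 122 to 167 CPM in double colored libraries, without overlap. Of these, 9 of 10 were positive, 8 had an unadjusted p under 0.05, and 2 passed in edgeR (Ctss and Adgre1), or 6 with the replicate number as a block. Over all tested genes 2.48% were called, or 7.53% with the block. Over 10 lymphocyte markers the summed level was 16.9 to 33.3 CPM in single colored and 1.59 to 4.44 CPM in double colored libraries. All 8 that could be tested passed as higher, where 2.32% of all tested genes were called higher. The filter could admit low genes through the single colored libraries alone, so this count is in part set by the filter. Nkg7, for example, had means of 2.41 CPM in single colored and 0.22 CPM in double colored libraries. With no filter all 10 lymphocyte markers were tested and 9 passed as higher, where 2.71% of the genes tested in that run were called higher. With a filter at 5 CPM only 1 lymphocyte marker was tested, and it passed as higher. Over 10 activated fibroblast markers the summed level was 107 to 277 CPM in single colored and 61.0 to 157 CPM in double colored libraries. Of these, 9 of 10 were positive, with a median log2 fold change of 0.76, or 0.35 with 7 of 10 positive without single colored replicate 1. In edgeR 0 passed, 4 had an unadjusted p under 0.05, and 6 passed with the replicate number as a block, all higher. With the block 4.97% of all tested genes were called higher. Mesothelial markers summed to 7.15 to 12.7 CPM in single colored and 2.80 to 9.51 CPM in double colored libraries, with 5 of 8 tested and 0 passing in edgeR (1 at an unadjusted p under 0.05). Endothelial markers summed to 174 to 222 CPM in single colored and 199 to 263 CPM in double colored libraries, and smooth muscle and pericyte markers to 239 to 306 CPM and 295 to 413 CPM. Platelet markers summed to 3.07 to 4.33 CPM in single colored and 2.77 to 4.27 CPM in double colored libraries, with Gp9 at 0 in all 8, and Schwann cell markers to 0.44 to 1.27 CPM and 1.38 to 2.91 CPM. Cardiomyocyte markers were lowest in single colored replicate 1, the library with the highest level of 7 of the 8 matricellular genes. Their median log2 fold change was -0.43 with 0 of 10 positive, or 0.03 with 7 of 10 positive when scaled by library totals alone. Without single colored replicate 1 it was -0.26, again with 0 of 10 positive. In edgeR 0 passed, and with the replicate number as a block 2 passed as lower, where 2.57% of all tested genes were called lower. For 4 of the 10, every single colored library lay below every double colored one, as for 3.76% of all tested genes. The part of these other cells in the differences of the 8 genes was not tested.

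Most other matricellular genes leaned to single colored cells without passing the threshold. Of 30 listed, 24 were tested, 19 had a positive log2 fold change, 1 passed as higher and 0 passed as lower in edgeR, with 8 at an unadjusted p under 0.05, beside 2.48% of all tested genes called in either direction. Their median log2 fold change was 0.48, or 0.21 with 15 of 24 positive when single colored replicate 1 was left out. The gene that passed was Ccn4, a WNT-induced member of the CCN family, at 7.05, 3.59, 5.33 and 2.70 CPM in single colored replicates 1 to 4, against 1.72, 2.18, 1.69 and 0.42 CPM in double colored replicates 1 to 4. Its groups did not overlap (log2 fold change 1.65 ± 0.40 SE, edgeR adjusted p = 0.0367), but it did not pass without single colored replicate 1 or 3 or double colored replicate 1, 3 or 4 (adjusted p up to 0.131) or without both libraries numbered 1 (0.166). Spp1, which encodes osteopontin, a cytokine-like matrix protein made in quantity by macrophages of injured tissue, measured 28.4, 21.1, 10.3 and 10.3 CPM in single colored replicates 1 to 4, against 10.8, 0.91, 0.35 and 0.29 CPM in double colored replicates 1 to 4. Double colored replicate 1 alone reached the single colored range. The log2 fold change was 2.49 ± 1.16 (SE, adjusted p = 0.389), and 5.09 without double colored replicate 1 (adjusted p = 0.00105). Aebp1, a collagen-binding protein, had a log2 fold change of 1.27 ± 0.36 (SE, adjusted p = 0.0905), and passed with the replicate number as a block (adjusted p = 0.000525). With the replicate number as a block, 8 of these genes passed as higher and 2 as lower, where 7.53% of all tested genes were called.

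Receptors that bind these proteins were read from a list of 32 genes. Of 29 tested, 19 were positive, 2 passed as higher and 0 as lower in edgeR, with 12 at an unadjusted p under 0.05. Over all tested genes 2.48% were called. The median log2 fold change of the list was 0.31, or 0.16 with 20 of 29 positive when single colored replicate 1 was left out. Itga4, the alpha chain of an integrin that binds fibronectin and is typical of leukocytes, measured 19.7, 11.3, 16.6 and 9.84 CPM in single colored replicates 1 to 4, against 4.19, 4.86, 5.70 and 3.51 CPM in double colored replicates 1 to 4. The groups were well apart (log2 fold change 1.66 ± 0.23 SE, edgeR adjusted p = 0.00169), and 8.04% of its exon bases overlap a gene on the other strand. Sdc3, a heparan sulfate proteoglycan of the cell surface, measured 18.8 ± 3.61 CPM in single colored and 10.9 ± 1.31 CPM in double colored cells (log2 fold change 0.79, adjusted p = 0.0161), and did not pass without double colored replicate 2 or 4 (adjusted p up to 0.0754). Sdc4, a syndecan of focal adhesions, had a log2 fold change of 0.75 ± 0.20 (SE, adjusted p = 0.0566) and Itgb6, the beta chain of a TGF-beta-activating integrin, of -0.70 ± 0.18 (SE, adjusted p = 0.0505). Both passed with the replicate number as a block (adjusted p = 0.0216 and 0.00749), in which 7 receptors were higher and 2 lower and 7.53% of all tested genes were called.

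Genes of matrix assembly and proteolysis also had mostly positive values. Of 32 listed, 30 were tested, 24 were positive, 3 passed as higher and 0 as lower in edgeR, with 10 at an unadjusted p under 0.05. Over all tested genes 2.32% were called higher. The median log2 fold change of the list was 0.40, or 0.21 with 21 of 30 positive when single colored replicate 1 was left out. Timp1, an inhibitor of matrix metalloproteinases, measured 8.36, 6.91, 5.28 and 5.40 CPM in single colored replicates 1 to 4, against 2.93, 1.41, 1.86 and 0.84 CPM in double colored replicates 1 to 4. It was higher without overlap (log2 fold change 1.88 ± 0.31 SE, edgeR adjusted p = 0.00396). Tgm2, the transglutaminase that crosslinks fibronectin, was higher by a small amount, at 37.5, 38.9, 47.6 and 42.03 CPM in single colored replicates 1 to 4, against 26.0, 28.3, 28.6 and 28.0 CPM in double colored replicates 1 to 4 (log2 fold change 0.58, adjusted p = 0.0297). Loxl3, a lysyl oxidase of collagen crosslinking, also passed (log2 fold change 1.88, adjusted p = 0.0386). Tgm2 did not pass when any library other than single colored replicate 1 was left out (adjusted p up to 0.108), and Loxl3 not without single colored replicates 1, 2 or 4 or double colored replicates 2, 3 or 4 (adjusted p up to 0.0888) or with a filter at 5 CPM (0.0724). In Loxl3 12.8% of exon bases, and in Tgm2 8.03 and 13.7%, overlap genes on the other strand. Mmp12, a macrophage elastase, had a log2 fold change of 2.74 ± 0.76 (SE, adjusted p = 0.135), and 4.01 without double colored replicate 1 (adjusted p = 0.00105). Lox, the main lysyl oxidase, had 2.01 ± 0.79 (SE, adjusted p = 0.301). With the replicate number as a block 9 of these genes passed, all higher, Lox and Mmp12 among them (adjusted p = 9.47e-07 and 0.00698), where 4.97% of all tested genes were called higher.

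Genes upstream of the matricellular program were split in direction with TMM factors, whereas 26 of 29 were positive when scaled by library totals alone. Of 31 listed, 29 were tested, 14 were positive, 1 passed as higher and 1 as lower (2.32 and 0.16% of all tested genes), 8 had an unadjusted p under 0.05, and the median log2 fold change was -0.06, or 0.46 when scaled by library totals alone and -0.05 to 0.08 with single libraries left out. Runx1, a transcription factor switched on in injured hearts and usual in blood cells, measured 18.4, 11.3, 9.47 and 6.19 CPM in single colored replicates 1 to 4, against 4.86, 5.32, 5.66 and 3.72 CPM in double colored replicates 1 to 4 (log2 fold change 1.22, edgeR adjusted p = 0.0237). It did not pass without single colored replicate 1 or double colored replicates 1, 2 or 4 (adjusted p up to 0.0987). Nor did Runx1 pass without both libraries numbered 1 (log2 fold change 0.88, edgeR adjusted p = 0.121). Tgfbr3, the TGF-beta co-receptor betaglycan, measured 13.0, 13.7, 13.6 and 13.6 CPM in single colored replicates 1 to 4, against 18.0, 20.8, 21.5 and 18.8 CPM in double colored replicates 1 to 4. It was lower in single colored cells (log2 fold change -0.55, adjusted p = 0.0374), did not pass when any single library was left out (adjusted p 0.0562 to 0.11) or with no filter (0.0621), and had a log2 fold change of -0.07 when scaled by library totals alone. Ltbp2, a latent TGF-beta binding protein, had a log2 fold change of 1.83 ± 0.76 (SE, adjusted p = 0.320) and Tgfbr1, the type I TGF-beta receptor, of 0.70 ± 0.23 (SE, adjusted p = 0.145), and both passed with the replicate number as a block (adjusted p = 0.00048 and 0.00943), in which 4 of the list were higher and 2 lower and 7.53% of all tested genes were called.

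**Figure D4:**
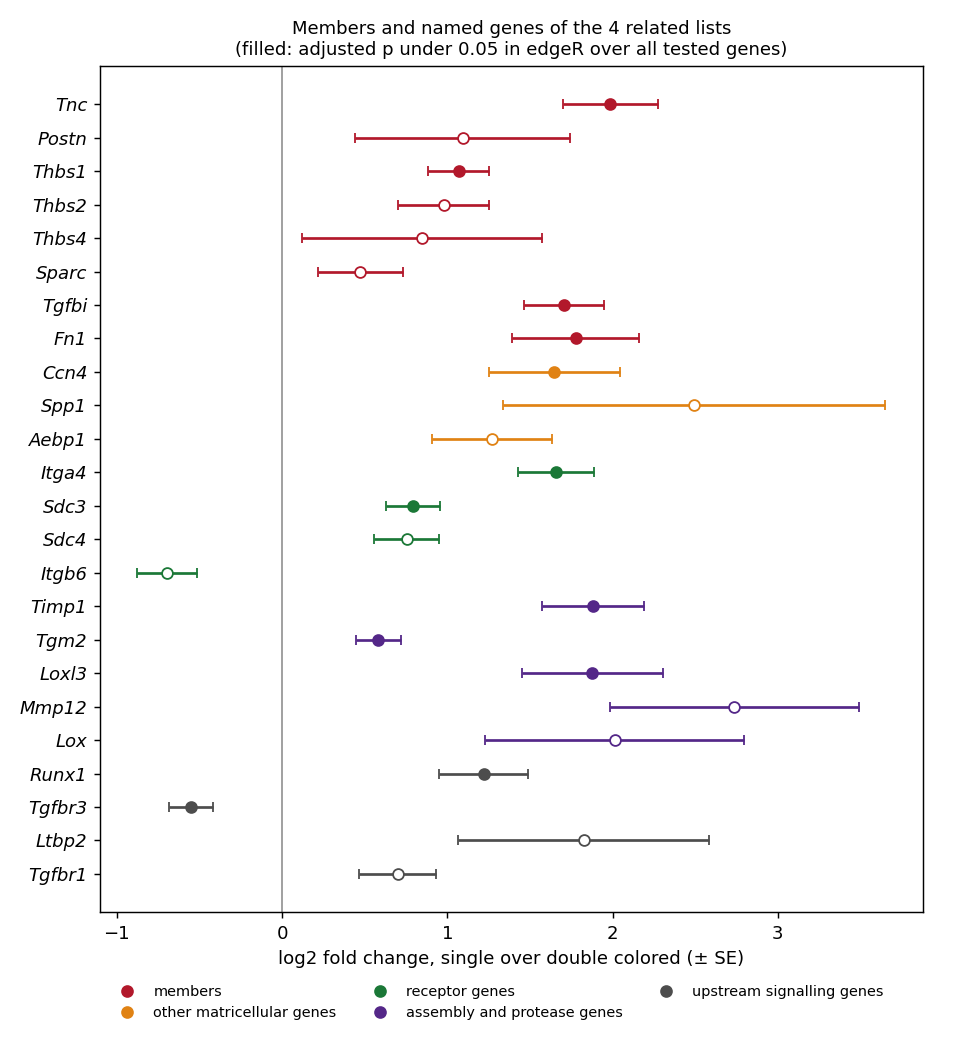
Log2 fold change of single over double colored cells (horizontal axis, points, with bars of 1 standard error) for the 8 matricellular genes and the named genes of 4 related lists; filled points had an edgeR adjusted p under 0.05 over all tested genes. Tgfbr3 and Itgb6 are the only points left of 0.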

How the data were processed

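RNA from isolated adult cardiomyocytes was extracted with the miRNeasy Micro Kit and amplified with the Ovation RNA-seq System v2, per the labels' protocols. Per the submitters' processing notes, STAR 2.5.2b aligned the reads to mm9 and featureCounts (Subread) assigned them to genes, and the file headers name a mapping quality of 30. Sources used here do not give the strand setting, so overlapping genes on opposite strands may share reads. The deposited values are raw whole counts per the file headers (no expected or estimated counts), used as they stand. The log2 fold changes the authors deposited are double over single colored.

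Of 37991 genes, 32919 were matched to a symbol. Counts of all 8 libraries were compared with edgeR 4.0.16 in R 4.3.3 (filterByExpr with a minimum count of 10, TMM, robust quasi-likelihood F-test, Benjamini-Hochberg adjustment over 12466 genes at 0.05). Log2 fold changes computed here are single over double colored, with a standard error from the F statistic, and CPM use TMM factors (0.953 to 1.44 in single and 0.733 to 0.972 in double colored libraries). The 8 genes, the gene lists and the markers were chosen with earlier results of these data known. Named were the genes of each of the 4 related lists past the threshold (up to 6 per direction), the 2 others with the largest log2 fold change at a mean of at least 5 CPM, all 12 fibroblast markers, and the genes with the most similar deviations.

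The titles number the replicates 1 to 4 in each group. Across genes, deviations from the group means correlated between libraries of the same number by 0.257, 0.126, 0.136 and 0.139, and between other combinations by at most 0.108. Ratios are therefore given within libraries of 1 number. What a number stands for is not in the labels. The main fit has no block, so its standard errors and calls take no account of these pairs. DESeq2 1.42.0, other scalings and filters, a replicate block and left-out libraries were run as alternatives.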

Additional observations from a re-analysis of the deposited data

Results flagged for a closer look

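In 72 groups of 4 libraries examined (each named gene in each group), 5 held a library far from the other 3, with a gap to its nearest neighbor above the critical value of Dixon's ratio of that gap to the group's range. Chance alone flags about 1 in 20 such groups. Tnc was flagged in both groups and in the same number: single colored replicate 1 had 34.7 CPM (gap 0.856 of the range) and double colored replicate 1 had 8.46 CPM (0.88). Spp1 in double colored replicate 1 had 10.8 CPM (0.942), and Sdc4 in double colored replicate 1 had 5.02 CPM (0.863). Tgfbr3 in single colored replicate 1 was the lowest of its group at 13.0 CPM (0.851). All 5 flagged values belong to libraries numbered 1.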

How the results depend on the processing

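The log2 fold changes of 36 genes were recomputed under other settings. Of 573 such values, 456 kept their direction and side of the threshold, 50 came to pass it, 52 ceased to, and 15 changed sign. The 309 genes differing became 1390 when scaled by library totals alone, 556 with DESeq2, 805 with no filter, 104 with a filter at 5 CPM, 146 without both libraries numbered 1 (an alternative chosen after seeing the data), and 134 to 304 with single libraries left out. Of these libraries, single colored replicate 1 gave 142 when left out, double colored replicate 2 gave 191 and double colored replicate 4 gave 134. With the replicate block they became 939, the members past the threshold 7 (also 7 with no filter), the other matricellular genes 10, the receptor genes 9, the assembly and protease genes 9 and the upstream genes 6. Among the genes whose log2 fold change the report gives, the block changed no call other than those stated there. With library totals alone these lists counted 7 other matricellular genes, 16 receptors, 14 assembly and protease genes and 8 upstream genes. DESeq2 gave 3, 6 and 5 for the lists of other matricellular, receptor and assembly genes, and no filter gave 11, 7, 8 and 4 for the 4 lists. The 5 CPM filter left 0 other matricellular genes (4 at an unadjusted p under 0.05 in edgeR) and 1 assembly gene. Without both libraries numbered 1 there were 2 other matricellular genes and 0 upstream genes (7 at an unadjusted p under 0.05 in edgeR). Leaving out single libraries gave 3 to 5 members, 0 to 2 other matricellular genes, 1 to 5 receptors, 1 to 3 assembly genes and 0 to 1 upstream genes. Among the values recomputed, signs changed only in fibroblast markers: with single libraries left out, the log2 fold change ran from -0.11 to 0.216 for Pdgfra, -0.355 to 0.062 for Dcn, -0.123 to 0.491 for Lum, -0.164 to 0.55 for Mfap5 and -0.113 to 0.394 for Fbln1. Scaled by library totals alone it was 0.433 for Dcn, 0.084 for Dpt, 0.022 for Pi16 and 0.061 for Dpep1. The cause of these shifts was not tested. Nuclear depth of 3503353 to 6112595 counts limits genes at a few CPM, such as Tgfbi, Tnc and Thbs4 in double colored cells.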
